A study of Mus musculus with 12 samples.

Results

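Genes were followed whose level differed between Cacna1g knockout (KO) and wild-type (WT) mice in the same direction whether or not the animals had been stressed. Of 24411 gene symbols in the deposited table, 15199 had enough counts to be tested, and the KO minus WT difference had the same sign without and with stress for 7377 of them (48.5%). Of these, 3679 were higher and 3698 lower in KO, while 7822 changed sign between the stress levels and are not described. The members were chosen by sign alone, which takes no account of the size of a difference or of its error.

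RNA was taken from the medial prefrontal cortex. The mice were females aged 8 to 12 weeks. The 12 libraries were of 4 groups of 3: WT and Cav3.1 KO mice without chronic stress, and WT and Cav3.1 KO mice after a forced swim or tail suspension session on each of 5 days. Both genotypes were described as C57BL/6J. The KO line was made in an earlier study and came from the RIKEN BioResource Research Center, whereas the WT mice were bought from Clea Japan. Genotype and colony of origin therefore cannot be told apart in any comparison below. Nothing in the labels ties each library to its own animal, and the p-values thus reflect variation among libraries.

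Cacna1g encodes Cav3.1, the pore of a T-type calcium channel. T-type channels open at weak depolarisation and carry the low-threshold calcium spikes that drive burst firing, best known in thalamic relay neurons. All 25 listed markers of cortical excitatory neurons and layers were detected at levels that could be tested. The medial prefrontal cortex is a frontal association area that takes part in coping with stress, and the forced swim and tail suspension procedures are commonly used to measure immobility in rodents.

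Totals of the estimated counts ran from 15469590 to 31082240 over the libraries. Levels are given as CPM, read counts scaled to library size, and a CPM depends on transcript length, so levels are compared between libraries and not between genes. Unstressed WT libraries 1 and 2 stood apart from the rest: along the first principal component (45.6% of the variance) they lay at -61.9 and -61.1, and the next lowest library lay at -7.55. Their score for 15 olfactory bulb markers, the mean log2 CPM centred over the 12 libraries, was 2.63 and 2.85, against values from -1.62 to 0.42 in the other 10 libraries. Their meningeal and fibroblast score was 1.56 and 1.72, against at most 0.33 elsewhere. Stressed KO library 1 scored 1.96 for striatal projection neuron markers and stressed WT library 3 scored 0.81 for myelin genes. In bulk tissue, fewer cells of a type and less RNA per cell cannot be told apart. Results below are therefore also given without unstressed WT libraries 1 and 2, and a call that passes there too, in the same direction, is said to hold. That leaves 1 unstressed WT library, whose spread is taken from the other groups. Its olfactory bulb score was 0.42 and its meningeal and fibroblast score 0.33. In the other groups the highest scores were 0.41 and 0.26. The part of tissue make-up in calls that held was not tested.

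The targeted gene was lower in KO at both stress levels. Cacna1g (chromosome 11, 94408391 to 94474198, minus strand, GRCm38) lay between 54.6 and 65.9 CPM in the 6 KO libraries and between 109 and 144 CPM in the 6 WT libraries, with no overlap. The averaged difference was log2 -1.06 ± 0.06 (SE; edgeR quasi-likelihood adjusted p = 3.0e-06). It held without unstressed WT libraries 1 and 2, at log2 -1.05 ± 0.08. The mean was 60.6 CPM in KO and 126.5 CPM in WT, so reads assigned to the gene remained in KO, and counts per gene do not show from which exons they came.

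Averaged over both stress levels, edgeR's quasi-likelihood test called 962 genes (6.33% of those tested, with 3.11% higher and 3.22% lower in KO) at a Benjamini-Hochberg adjusted p under 0.05. The sign was the same in both levels for 922 of them (6.07%). Of these, 444 (2.92%) were higher and 478 (3.14%) lower in KO. Most differences were small: the median size was 0.36 on the log2 scale, the range was 0.153 to 7.19, and 707 of the 922 were under 1.5-fold, with 76 at 1 or more. At the edge of the call lay Phf11d, at log2 1.04 ± 0.28 (SE) with an adjusted p of 0.0497 just inside, and Lyplal1, at 0.36 ± 0.10 with 0.0501 just outside. The 6 KO libraries did not overlap the 6 WT libraries for 285 of the called genes (1.88% of the genes tested, and 2.25% over all genes whether called or not).

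The same fit read in each stress level gave very unequal counts. Without stress 3529 genes (23.2%) passed, and with stress 38 (0.25%) passed, 13 higher and 25 lower in KO. In both levels singly, 26 genes (0.171%) passed in the same direction, 9 higher and 17 lower, and 0 passed in opposite directions. No gene passed the edgeR test of the interaction between genotype and stress (0%), although 4330 had an unadjusted p under 0.05 and DESeq2 called 1844, so a like sign is not shown to mean a like size. Without unstressed WT libraries 1 and 2, which leaves 1 unstressed WT library, the comparison without stress called 18 genes. Separate fits of the 6 unstressed and the 6 stressed libraries, which share no library, called 18 and 41 genes, of which 12 passed in both in the same direction (66.7% of the first and 29.3% of the second). These were Wdfy1, Gabra2, Nnt, Mtg1 and Srp54b, higher in KO, and Cacna1g, Tmem254a, Tmem254b, Plac9a, Plac9b, Ccl21b and 1 unnamed gene model, lower in KO.

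**Figure D1:**
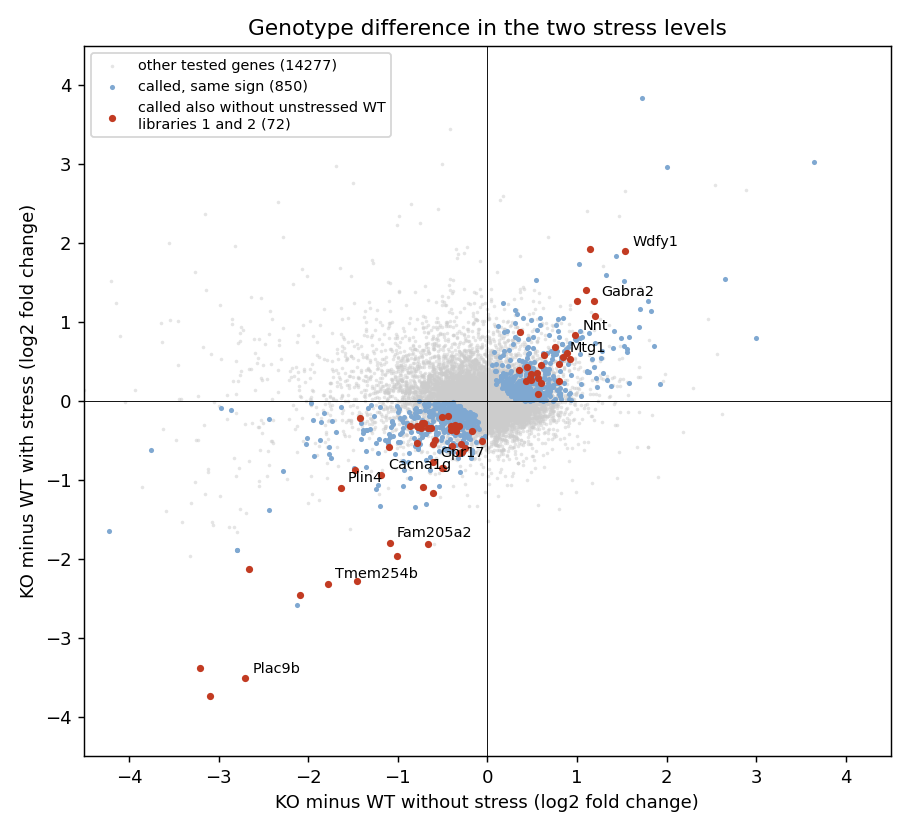
KO minus WT log2 fold change of each tested gene without stress (x axis) and with stress (y axis), from 1 fit of 12 libraries; blue points are genes called with the same sign, red points those also called without unstressed WT libraries 1 and 2, and 21 genes lie beyond the plotted limit of 4.5 on either axis. The red points lie in the quadrants of like sign, with Wdfy1 at the upper right and Plac9b at the lower left, and some, such as Fdps, lie off the diagonal.

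Without unstressed WT libraries 1 and 2, 77 genes were called with the same sign (0.498% of 15477), and 72 of the 922 held (7.81%), 26 higher and 46 lower in KO. Of the 72, 55 had KO libraries that did not overlap WT, 14 have counts shared with similar sequences and 8 are unnamed gene models. With the bulb score as covariate instead, 63 of the 922 were called. Over all 23 alternatives, 34 genes were called in the same direction in each one in which they could be tested, 12 higher and 22 lower in KO.

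**Figure D2:**
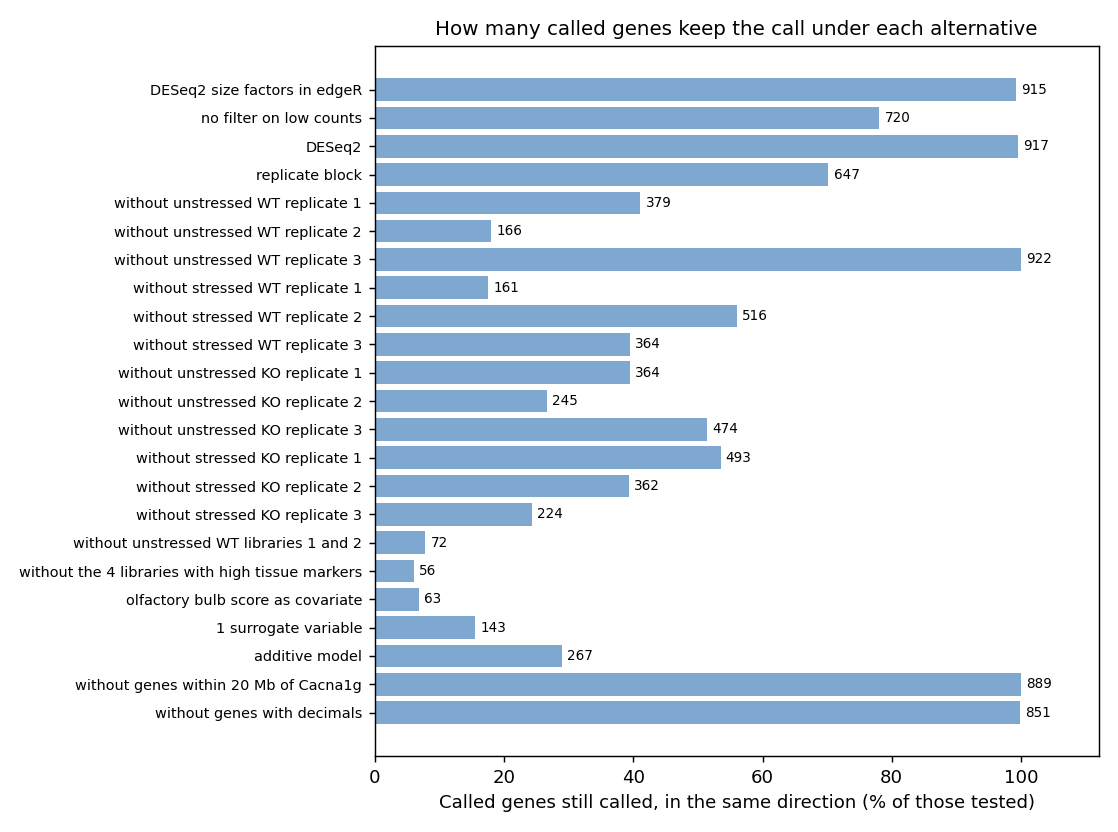
Share of the 922 called genes that were still called in the same direction under each alternative, as a percentage of those tested there, with their number beside each bar. The smallest shares are those without the 4 libraries with high tissue markers (56 genes), with the olfactory bulb score as covariate (63) and without unstressed WT libraries 1 and 2 (72).

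Among called genes with a proper name, a mean log2 CPM not under 0 and no overlap between genotypes, Wdfy1 had the largest averaged rise in KO. It encodes a phosphoinositide-binding protein of early endosomes. Its level was 25.1, 25.7 and 21.1 CPM (libraries 1 to 3) in WT left unstressed, 20.1, 16.3 and 17.7 CPM in stressed WT, 69.4, 73.4 and 66.5 CPM in KO left unstressed and 70.0, 66.1 and 65.5 CPM in stressed KO. Every KO library was above every WT library by more than the spread within either, and the averaged difference was log2 1.72 ± 0.07 (SE; edgeR adjusted p = 5.6e-08). Wdfy1 overlaps Mrpl44, and whether the counting used strand is not given in the sources used here.

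Gabra2, which encodes the alpha-2 subunit of the GABA-A receptor, was about as regular. Its level was 45.9, 46 and 44.4 CPM in WT left unstressed, 41.7, 37.9 and 31.2 CPM in stressed WT, 109, 101 and 101 CPM in KO left unstressed and 92.8, 92.1 and 80.6 CPM in stressed KO. The groups did not overlap, and the difference was log2 1.19 ± 0.10 without and log2 1.26 ± 0.10 with stress. Gabra2 was the 1 gene of 20 for GABA synthesis, transport and receptors that passed (5%, against 6.07% over all genes). As background, C57BL/6J mice are known to carry an intronic deletion that lowers Gabra2 expression.

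Nnt, the mitochondrial transhydrogenase that makes NADPH, stood at 15.7, 17.8 and 15.7 CPM in WT left unstressed, 16.1, 16.6 and 17.7 CPM in stressed WT, 31.5, 34.6 and 31 CPM in KO left unstressed and 30.5, 28.9 and 30.4 CPM in stressed KO. KO libraries were all above WT libraries and the stress levels within a genotype were alike, with an averaged difference of log2 0.91 ± 0.06 (SE; edgeR adjusted p = 3.0e-06). C57BL/6J mice are known for a deletion of exons of Nnt. A list of genes reported to differ between C57BL/6 substrains had 6 tested members. With the same sign 4 were called (66.7%, against 6.07% over all genes), 2 higher (Wdfy1 and Nnt) and 2 lower. The lower ones were Crb1, a polarity protein of the retina (log2 -1.24 ± 0.28), and Ide, the insulin-degrading enzyme (log2 -0.21 ± 0.04). All but Ide held, although Crb1 lost its call in 10 of 23 alternatives. With calls in both directions, the list's median was 0.05 (-0.06 without unstressed WT libraries 1 and 2) against 0.001 over all genes tested. As stated above, genotype and colony cannot be told apart.

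Mtg1, a GTPase of the mitochondrial ribosome, rose too. Its level was 12.9, 12.8 and 13 CPM in WT left unstressed, 15.7, 16.8 and 14.7 CPM in stressed WT, 22.2, 23.7 and 23.5 CPM in KO left unstressed and 22.1, 24 and 23.4 CPM in stressed KO. No KO library overlapped WT, at log2 0.70 ± 0.05 (SE; edgeR adjusted p = 2.4e-05). Mtg1 overlaps Sprn. Srp54b, a copy of the gene for the GTPase subunit of the signal recognition particle, was higher by log2 1.14 ± 0.11, but its reads are shared with near-identical copies. The sum over Srp54a, Srp54b and Srp54c lay between 172 and 229 CPM in WT and between 238 and 300 CPM in KO, so the copies together were also higher in every KO library.

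The other large rises by that rule were of genes at low levels. Nadsyn1, which makes NAD, stood at 2.79, 3.86 and 2.38 CPM in WT left unstressed, 3.14, 2.4 and 2.76 CPM in stressed WT, 6.44, 5.02 and 6.67 CPM in KO left unstressed and 7.07, 5.69 and 7.36 CPM in stressed KO. Its KO values were all higher than its WT values, at log2 1.14 ± 0.14 (SE). Cfap46, a protein of motile cilia, differed by log2 1.25 ± 0.18, and both genes held. Drd5, a dopamine receptor (log2 1.11 ± 0.20), Esr1, the estrogen receptor alpha (log2 0.77 ± 0.16), Vill, a villin-like protein (log2 0.79 ± 0.13), and Cenpa, the centromeric histone (log2 0.82 ± 0.22), passed with groups that did not overlap but did not hold. The same was true of Efcab7 (log2 0.95 ± 0.15), Aim1l (log2 0.92 ± 0.20), Palm3 (log2 0.83 ± 0.19), Celrr (log2 0.81 ± 0.19) and Fam177a (log2 0.78 ± 0.12). For Esr1 the unstressed WT values were 3.44, 3.8 and 6.69 CPM, lowest in the libraries with the highest olfactory bulb scores, and the part of tissue make-up in its difference was not tested.

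**Figure D3:**
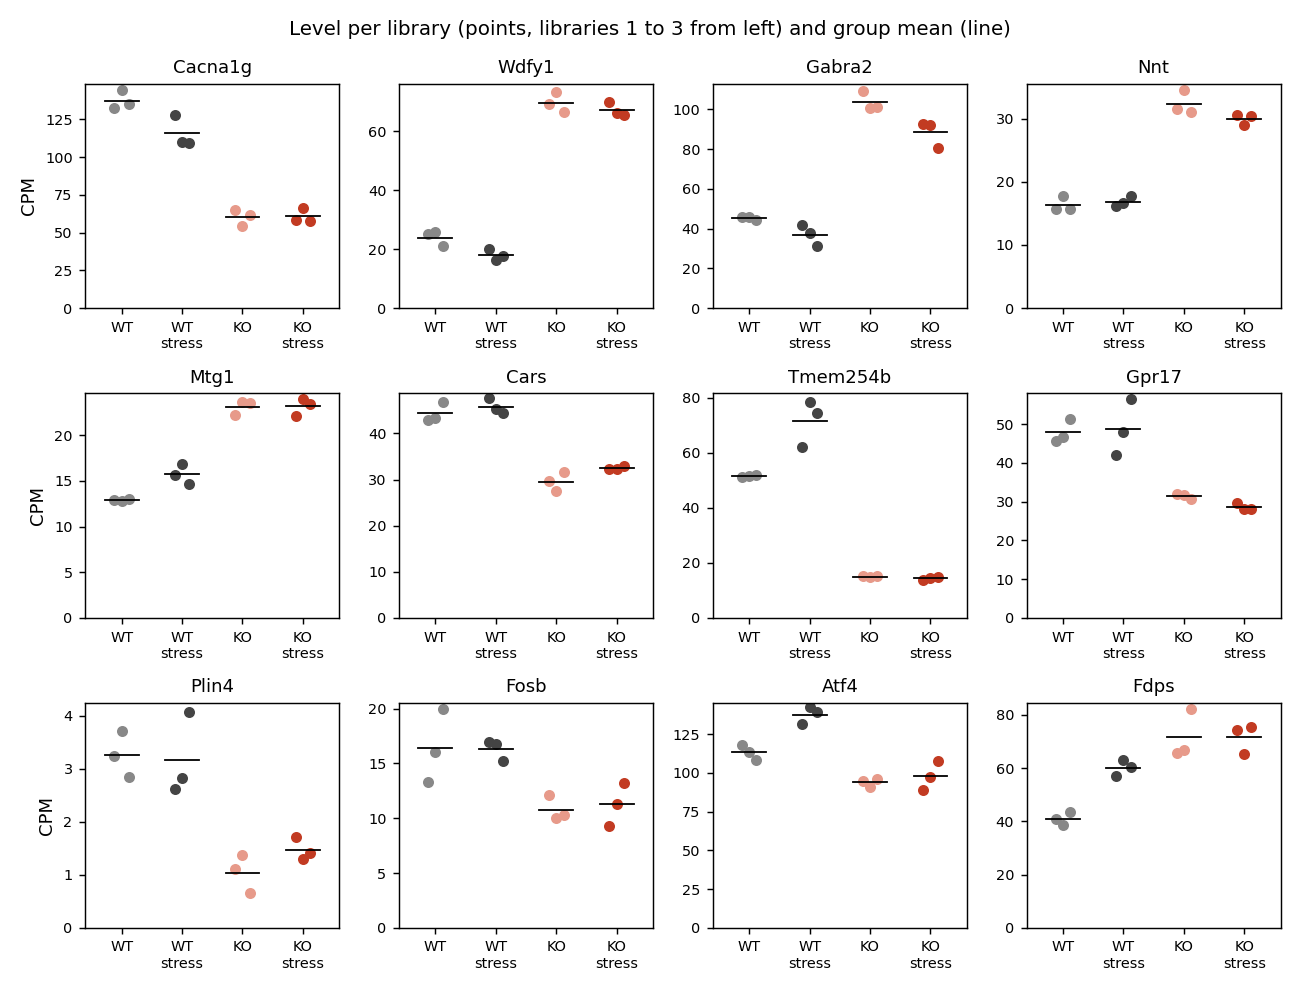
Level in CPM (y axis, from 0) of 12 genes in each library of the 4 groups; points are libraries 1 to 3 from left to right and lines are group means. For Wdfy1, Gabra2, Nnt and Mtg1 all 6 KO points lie above all 6 WT points, and for Cacna1g, Cars, Tmem254b, Gpr17 and Plin4 all lie below.

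By the same rule as for the rises, the largest falls in KO were in families of near-identical genes, for which the sum over the copies is the safer measure. Tmem254a, Tmem254b and Tmem254c encode the same small membrane protein family from neighbouring copies on chromosome 14, and the deposited counts are divided among them. Tmem254b stood at 51.2, 51.8 and 51.9 CPM in WT left unstressed, 62.1, 78.4 and 74.4 CPM in stressed WT, 15.1, 14.8 and 15.3 CPM in KO left unstressed and 13.8, 14.4 and 15 CPM in stressed KO. Its KO values were nearly constant and far below WT, at log2 -2.05 ± 0.06 (SE; edgeR adjusted p = 5.1e-09), the smallest p of the genes tested. Over the 3 copies the sum was 54.8 to 86.0 CPM in WT and 14.8 to 17.1 CPM in KO, a ratio of means of 4.19. How alike the copies are can be seen just upstream of their annotated starts. The 250 bases before the start of Tmem254a (chr14:25927673-25927922, minus strand) and of Tmem254b (chr14:26207026-26207275, minus strand), from RefSeq on GRCm38.p6, are given here 5′ to 3′. Capitals mark the 16 bases of the Tmem254b window that extend past the end of the Tmem254a window.
Tmem254a: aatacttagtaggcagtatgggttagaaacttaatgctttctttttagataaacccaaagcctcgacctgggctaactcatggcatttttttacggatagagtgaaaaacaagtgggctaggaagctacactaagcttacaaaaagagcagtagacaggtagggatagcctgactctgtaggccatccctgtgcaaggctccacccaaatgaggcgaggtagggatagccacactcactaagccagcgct
Tmem254b: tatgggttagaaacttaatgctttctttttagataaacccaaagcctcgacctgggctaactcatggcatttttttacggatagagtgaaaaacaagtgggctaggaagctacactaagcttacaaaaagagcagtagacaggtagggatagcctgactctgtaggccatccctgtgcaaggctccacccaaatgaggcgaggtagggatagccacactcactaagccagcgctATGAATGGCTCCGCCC
The 234 bases that the windows share are identical, and the window of Tmem254c is the same as that of Tmem254a in all 250 bases.

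Plac9a and Plac9b, which encode a small secreted protein, lie in the same stretch of chromosome 14 and fell with them. Their sum was 4.60 to 7.07 CPM in WT and 0.747 to 1.34 CPM in KO, a ratio of means of 6.11. From Plac9a to Tmem254b (25887506 to 26207041) all 6 tested genes were lower in KO at both stress levels, 5 were called and 4 held. A stretch of chromosome 4 (42091207 to 42528175) contained Ccl21b, a chemokine that draws T cells and dendritic cells through Ccr7, together with Fam205a2 and an unnamed gene model. Of its 8 tested genes 6 were lower in KO at both stress levels, 4 were called and 3 held. The others changed sign between the stress levels. Over all genes tested, 6.07% were called with the same sign. The ends of the stretches on chromosomes 14 and 4 were set by genes that held, so these counts are a description. The sum over Ccl21a, Ccl21b and Ccl21c was 19 to 35.8 CPM in WT and 0.299 to 0.640 CPM in KO. Those KO values correspond to 6 to 12 estimated reads per library, and the ratio of means was 61.1. Fam205a1 and Fam205a2 together gave 22.6 to 56.1 CPM in WT and 12.6 to 16.6 CPM in KO. These members are uncertain as single genes, and counts per gene do not tell expression apart from the number of copies.

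Among falls outside the families above, Plin4, a protein that coats lipid droplets, stood at 3.23, 3.71 and 2.85 CPM in WT left unstressed, 2.61, 2.83 and 4.06 CPM in stressed WT, 1.11, 1.37 and 0.647 CPM in KO left unstressed and 1.71, 1.3 and 1.41 CPM in stressed KO. KO libraries were all lower, at log2 -1.37 ± 0.19 (SE; edgeR adjusted p = 0.00361). Plin4 overlaps Hdgfrp2. Cdc42bpg, a kinase that acts downstream of the small GTPase Cdc42, differed by log2 -1.18 ± 0.16 and held. Plekhf1, an endosomal protein (log2 -1.27 ± 0.20), and Mybpc1, a myosin-binding protein (log2 -1.23 ± 0.27), passed without overlap but did not hold. Pcdhb2 (log2 -0.85 ± 0.14), Pcdhb8 (log2 -0.84 ± 0.11) and Pcdhb10 (log2 -0.85 ± 0.14) are clustered protocadherins, adhesion proteins that give neurons distinct surface identities. Pcdhb8 held, while Pcdhb8 and Pcdhb10 are uncertain because their counts are shared with similar genes. Cars, which charges tRNA with cysteine, stood at 43, 43.4 and 46.7 CPM in WT left unstressed, 47.6, 45.4 and 44.3 CPM in stressed WT, 29.6, 27.5 and 31.6 CPM in KO left unstressed and 32.3, 32.3 and 33 CPM in stressed KO. KO and WT did not overlap, at log2 -0.54 ± 0.05 (SE; edgeR adjusted p = 1.3e-04). Tsr2, a chaperone of a ribosomal protein, was higher by log2 0.42 ± 0.04 and passed at each stress level, as Cars did. It overlaps Fgd1.

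Near the targeted locus no gene other than Cacna1g held. Within 1 Mb of Cacna1g 2 of the other 27 tested genes were called (7.41%, against 6.07% overall), within 5 Mb 4 of 116 (3.45%), within 10 Mb 18 of 279 (6.45%) and within 20 Mb 32 of 497 (6.44%). With neighbours no more than 2 Mb apart, 27 of the 72 held genes fell into 9 runs. How many runs the spacing of tested genes alone would give was not tested. A stretch of 4.82 Mb at the distal end of chromosome 7 (139600951 to 144424494), picked because it held several of them, had 77 tested genes, of which 16 were called (20.8%) and 8 held (10.4%, against 0.474% over all genes tested). Since the stretch was chosen for its calls, these shares are a description. From its start they were Cfap46 and Mtg1 (higher), Caly, an endocytic adaptor of neurons (log2 -0.36 ± 0.04), Cars (lower), Tnfrsf23, a decoy receptor (lower, uncertain, 0 to 0.191 CPM in KO and 0.471 to 1.22 CPM in WT), Mrgpre, an orphan receptor (log2 0.61 ± 0.08), Nadsyn1 (higher) and Shank2 (lower). Both directions were thus present within the stretch. Nnt and an unnamed gene model formed a run on chromosome 13. Egr1, Igip (log2 0.53 ± 0.07), Pcdhb8 and Pcdhga10 (log2 -0.66 ± 0.08, uncertain) formed one on chromosome 18. That stretch had 98 tested genes, of which 18 were called, among them Pcdhb2 and Pcdhb10. Both this count and the 20.8% on chromosome 7 stand against 6.07% called over all genes tested. The ends of the chromosome 18 stretch were set by genes that held, so its count too is a description.

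**Figure D4:**
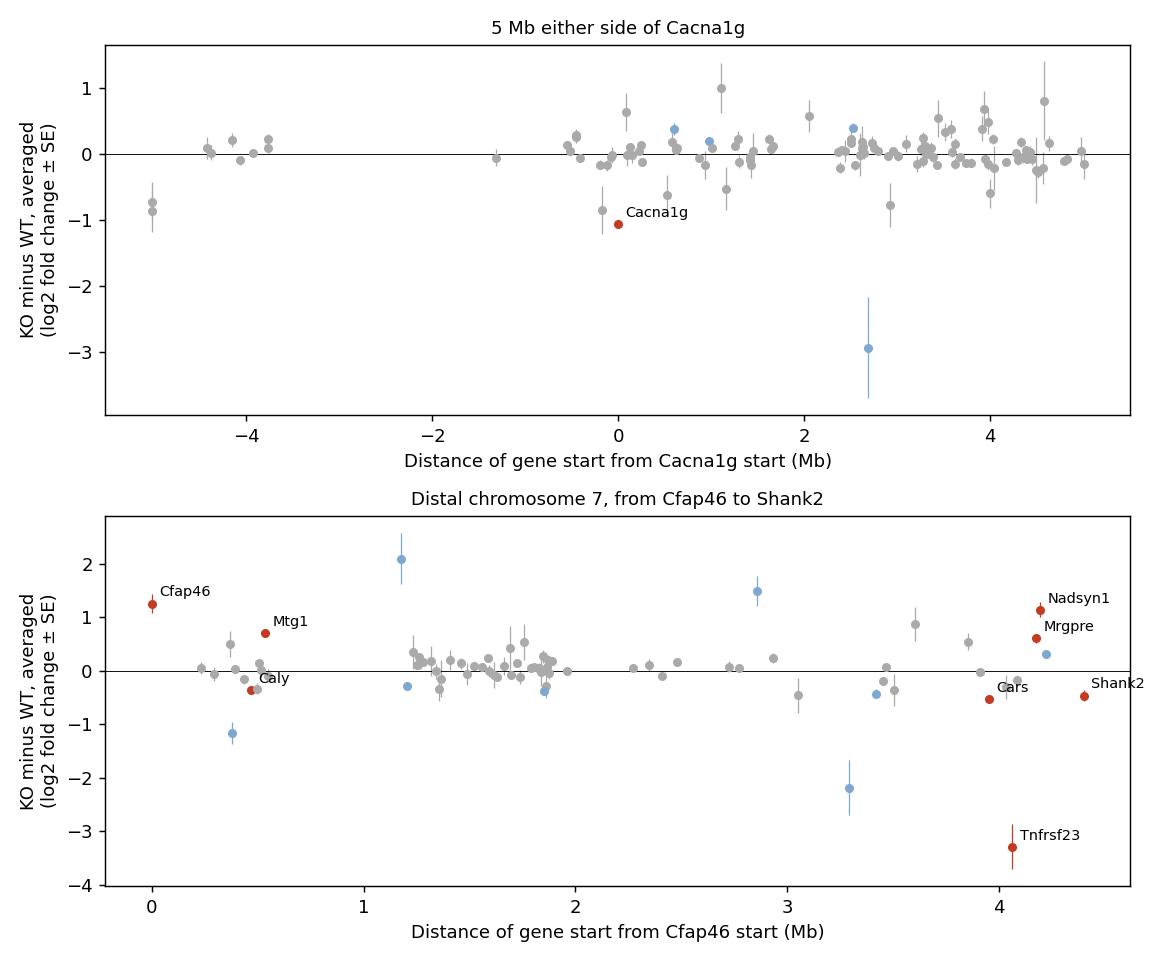
Averaged KO minus WT log2 fold change ± SE (y axis) by distance of the gene start, for genes within 5 Mb of Cacna1g (upper) and from Cfap46 to Shank2 on distal chromosome 7 (lower); grey points did not pass, blue points were called with the same sign, and red points were also called without unstressed WT libraries 1 and 2. Cacna1g is the 1 red point in the upper panel, and 8 red points of both directions appear in the lower panel.

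Of the other T-type pore genes, Cacna1i, which encodes Cav3.3, was lower and Cacna1h changed sign. Cacna1i stood at 194, 204 and 160.3 CPM in WT left unstressed, 173, 142 and 154 CPM in stressed WT, 131, 117 and 128 CPM in KO left unstressed and 92.9, 141 and 119 CPM in stressed KO. The groups did not overlap, at log2 -0.49 ± 0.10 (SE; edgeR adjusted p = 0.0209), but the call did not hold (adjusted p = 0.141). Among 6 high-voltage pore genes 1 was called (16.7%, against 6.07% over all genes). This was Cacna1c, which encodes the L-type channel Cav1.2 (log2 -0.39 ± 0.09), and it did not hold. Its unstressed WT values were 144, 126 and 107 CPM and its stressed WT values 87.2, 73.1 and 67.6 CPM, so that WT and KO overlapped. Of 14 auxiliary subunits 0 were called in edgeR's test over all genes, 2 had an unadjusted p under 0.05 with the same sign, and DESeq2 called 1. By sign, 6 had the same sign, all lower in KO, with Cacng7 at log2 -0.30 ± 0.10 (adjusted p = 0.0936). Among 37 genes for calcium stores, pumps and calmodulin signalling 2 fell (5.41%, against 3.14% called lower over all genes). These were Atp2b2, a plasma membrane calcium pump (log2 -0.39 ± 0.07), and Slc8a3, a sodium-calcium exchanger (log2 -0.49 ± 0.12). Neither held.

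Of 36 potassium channel genes 3 fell (8.33%, against 3.14% called lower over all genes) and 0 rose. By sign, 18 had the same sign, 16 of them lower, with a list median of -0.15 (-0.02 without and -0.22 with stress). Kcnc1, a fast delayed rectifier of fast-spiking neurons, stood at 260.5, 268 and 212 CPM in WT left unstressed, 206, 194 and 200.4 CPM in stressed WT, 174, 158 and 184 CPM in KO left unstressed and 158, 183 and 167 CPM in stressed KO. Its KO values were all below its WT values, at log2 -0.38 ± 0.07 (SE). Kcnj2, an inward rectifier, differed by log2 -0.39 ± 0.07. Neither held at the threshold, with adjusted p of 0.112 and 0.056 without unstressed WT libraries 1 and 2. Of 12 sodium and HCN channel genes 1 fell (8.33%, against 3.14% called lower over all genes), Hcn3 (log2 -0.37 ± 0.09), which did not hold.

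At synapses, 2 of 31 genes for glutamate receptors and the postsynaptic scaffold fell (6.45%, against 3.14% called lower over all genes) and 0 rose. Shank2, a scaffold that links receptors to the cytoskeleton, stood at 121, 142 and 173 CPM in WT left unstressed, 141, 127 and 149 CPM in stressed WT, 113, 129 and 115 CPM in KO left unstressed and 86.1, 104 and 77.2 CPM in stressed KO. Stressed KO values were the lowest, WT and unstressed KO overlapped, and the averaged difference was log2 -0.47 ± 0.10. The call held in the fit whose 1 remaining unstressed WT library had the highest unstressed WT value. It was lost in 5 of 23 alternatives. Grin1, the obligatory subunit of NMDA receptors, was lower in every KO library (log2 -0.30 ± 0.07) but did not hold (adjusted p = 0.0626). Of the list's 11 members of like sign 10 were lower in KO. Of 29 presynaptic release genes and 25 excitatory layer markers, 0 and 0 were called by edgeR over all genes. With the same sign, 6 release genes and 8 layer markers had an unadjusted p under 0.05, and DESeq2 called 2 of each list. Doc2a, a calcium sensor of release, had log2 0.38 ± 0.12 (adjusted p = 0.066), and Cux1, an upper-layer transcription factor, log2 -0.40 ± 0.13 (adjusted p = 0.0793). Of 25 cortical interneuron markers 2 fell (8%, against 3.14% called lower over all genes), Reln (log2 -0.71 ± 0.18) and Adarb2 (log2 -0.64 ± 0.17), and neither held. Reln stood at 230.2, 288 and 115 CPM in unstressed WT, beside olfactory bulb scores of 2.63, 2.85 and 0.42, and between 60.1 and 88.1 CPM in the other 9 libraries. The part of tissue make-up in that fall was not tested.

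Immediate early genes, the first to be transcribed after neurons fire, included 4 falls (12.5%, against 3.14% called lower over all genes) and 0 rises among 32. Of the 17 members of like sign 15 were lower in KO, and the list's median was -0.10 averaged, -0.06 without and -0.24 with stress, and -0.20 averaged without unstressed WT libraries 1 and 2, against values of -0.003 to 0.004 over all genes. Egr1, a zinc finger transcription factor, stood at 133, 180.4 and 228 CPM in WT left unstressed, 269.8, 304 and 294 CPM in stressed WT, 132, 83.3 and 114 CPM in KO left unstressed and 83.9, 143 and 181 CPM in stressed KO. Stressed WT was highest and the KO values overlapped the lowest WT values, with an averaged difference of log2 -0.90 ± 0.18 (SE; edgeR adjusted p = 0.0211). Egr4, its relative, gave 17.8, 23.9 and 36.4 CPM in WT left unstressed, 38.7, 32.1 and 36.2 CPM in stressed WT, 19.6, 16.8 and 18.9 CPM in KO left unstressed and 15.5, 19.3 and 24.9 CPM in stressed KO. Fosb, a partner of Jun proteins in AP-1, gave 13.3, 16 and 20.0 CPM in WT left unstressed, 17, 16.8 and 15.2 CPM in stressed WT, 12.1, 9.99 and 10.3 CPM in KO left unstressed and 9.33, 11.3 and 13.3 CPM in stressed KO. Its lowest WT and highest KO values were both 13.3 CPM to the digits given. The difference was log2 -0.61 ± 0.16 without and log2 -0.54 ± 0.16 with stress. Egr1, Egr4 and Fosb held, at log2 -1.07 ± 0.19, log2 -0.92 ± 0.12 and log2 -0.71 ± 0.11. The 1 unstressed WT library left in that fit had the highest unstressed WT value of each of these 3 genes. With the bulb score as covariate instead, none of the 3 was called (edgeR adjusted p = 0.0877, 0.0991 and 0.0877). Egr4 lost its call in 11 of 23 alternatives. The fourth, Dusp4, a phosphatase that ends MAP kinase signalling (log2 -0.72 ± 0.12), did not hold.

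Genes that respond to glucocorticoids, the stress hormones of the adrenal cortex, gave 5 falls (22.7%, against 3.14% over all genes) and 0 rises among 22. The list's median was -0.24, and -0.13 without unstressed WT libraries 1 and 2. Fkbp5, a chaperone that dampens the glucocorticoid receptor, stood at 40.5, 36.2 and 36.2 CPM in WT left unstressed, 41, 35.1 and 33.6 CPM in stressed WT, 27.3, 28.2 and 29.4 CPM in KO left unstressed and 33.4, 32.4 and 32.3 CPM in stressed KO. Its KO values were below all WT values, at log2 -0.29 ± 0.06 (SE; edgeR adjusted p = 0.0218). Klf9 (log2 -0.24 ± 0.05), Hif3a (log2 -0.54 ± 0.14) and Cdkn1a, an inhibitor of the cell cycle (log2 -0.65 ± 0.17), fell as well, and Plin4 is the fifth. Of the 5, Plin4 held. Klf9 lay close together without stress, at log2 -0.03 ± 0.08, and apart with stress, at log2 -0.45 ± 0.08; the interaction did not pass (edgeR adjusted p = 0.0609). Of 22 clock genes 3 were called (13.6%, against 6.07% over all genes). Per2, a repressor of the clock, and Cry1 fell, by log2 -0.38 ± 0.10 and log2 -0.29 ± 0.08. Dbp, an output factor of the clock, rose by log2 0.29 ± 0.08. Per2 held but lost its call in 13 of 23 alternatives, with an edgeR adjusted p of 0.115 with the bulb score as covariate. Of 44 stress neuropeptide and monoamine receptor genes 2 rose (4.55%, against 2.92% called higher over all genes). These were Drd5 and Oprk1, the kappa opioid receptor (log2 1.04 ± 0.26), and neither held.

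Among genes of the unfolded protein and integrated stress response, 8 of 28 fell (28.6%, against 3.14% called lower over all genes), 0 rose and 1 of the 8 held. In this response, phosphorylation of the translation factor eIF2 favours translation of Atf4, which then raises genes of amino acid supply and protein folding. Of the 28, 14 had the same sign, 10 of them lower in KO, and the median over all 28 was -0.07 (0.05 without and -0.19 with stress). Atf4 itself stood at 118, 113 and 108 CPM in WT left unstressed, 132, 142 and 139 CPM in stressed WT, 94.7, 90.6 and 96.1 CPM in KO left unstressed and 89.2, 97.2 and 108 CPM in stressed KO. Stressed WT was highest, and the lowest WT and highest KO values were both 108 CPM to the digits given. Averaged over stress, Atf4 differed by log2 -0.38 ± 0.05 (SE; edgeR adjusted p = 0.00408), with a pass at each stress level. Without unstressed WT libraries 1 and 2 its adjusted p was 0.0504, at log2 -0.35 ± 0.07. Sesn2, which senses leucine, differed by log2 -0.50 ± 0.07, Chac1, which degrades glutathione, by log2 -0.52 ± 0.09, Atf5 by log2 -0.85 ± 0.19, and Mthfd2, a mitochondrial folate enzyme, by log2 -0.45 ± 0.09. Herpud1 (log2 -0.29 ± 0.05) and Pdia4 (log2 -0.25 ± 0.07) act in degradation and folding in the endoplasmic reticulum. Shmt2, the mitochondrial serine hydroxymethyltransferase, stood at 24.1, 23 and 19.4 CPM in WT left unstressed, 19.3, 19.2 and 20.1 CPM in stressed WT, 15.1, 13.5 and 14.5 CPM in KO left unstressed and 16, 14.9 and 15.4 CPM in stressed KO. Its groups did not overlap, and it was the 1 member that held (log2 -0.48 ± 0.06); it overlaps Ndufa4l2.

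Atf4 binds composite sites of the form TGATGNAA. In the 250 bases before the annotated start (RefSeq, GRCm38.p6, both strands searched), this string was found for 2 of the 8 called members, Chac1 and Herpud1. It was found for 4 of 26 tested members with a window (15.4%), 20 of 673 called genes of any kind (2.97%) and 275 of 11461 tested genes (2.40%). The windows of those 2 genes are shown 5′ to 3′ on the strand of the gene, Chac1 from chr2:119350992-119351241 and Herpud1 from chr8:94386179-94386428, both plus strand. Capitals mark the match, which reads as the reverse complement.
Chac1: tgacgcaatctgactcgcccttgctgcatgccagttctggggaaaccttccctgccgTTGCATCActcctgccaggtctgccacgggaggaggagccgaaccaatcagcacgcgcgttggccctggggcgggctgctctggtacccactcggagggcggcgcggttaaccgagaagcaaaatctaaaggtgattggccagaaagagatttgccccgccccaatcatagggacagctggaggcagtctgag
Herpud1: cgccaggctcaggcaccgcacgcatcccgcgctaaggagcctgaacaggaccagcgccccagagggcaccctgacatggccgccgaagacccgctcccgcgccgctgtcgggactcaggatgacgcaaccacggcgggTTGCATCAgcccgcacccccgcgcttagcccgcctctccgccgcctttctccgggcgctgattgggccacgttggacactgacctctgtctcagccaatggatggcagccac
A match to these letters does not show that the factor binds there.

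Cholesterol synthesis genes were higher in KO where they passed with the same sign. Of 24 tested, 14 had the same sign, all higher in KO, 9 were called higher (37.5%, against 2.92% over all genes) and 0 lower, and 2 more passed with opposite signs. The median was 0.26 averaged, 0.44 without and 0.08 with stress. Fdps, which makes farnesyl diphosphate, stood at 41, 38.6 and 43.5 CPM in WT left unstressed, 57.1, 63.2 and 60.2 CPM in stressed WT, 65.8, 66.7 and 82.2 CPM in KO left unstressed and 74.2, 65.2 and 75.5 CPM in stressed KO. Its KO values were all above WT, but stressed WT lay nearer to KO than unstressed WT did, at log2 0.80 ± 0.10 without and log2 0.25 ± 0.10 with stress; the interaction had an edgeR adjusted p of 0.0577. Fdps was the 1 member that held. Others that rose were Sqle, squalene epoxidase (log2 0.36 ± 0.07), Insig1, which retains SREBP cleavage-activating protein (log2 0.30 ± 0.06), Dhcr7, the last step of the pathway (log2 0.31 ± 0.06), and Msmo1 (log2 0.37 ± 0.08, of which log2 0.01 ± 0.11 with stress). Unstressed WT had the lowest list scores of the 4 groups, -0.38 to -0.23, against -0.04 to 0.19 in the other 9 libraries. Of 75 oxidative phosphorylation subunits 1 rose (1.33%), Sdhb (log2 0.23 ± 0.06). Of 76 cytosolic ribosomal proteins 2 rose (2.63%), Rps4l (log2 0.59 ± 0.09) and Rpl10 (log2 0.34 ± 0.07). Both shares were below the 2.92% called higher over all genes, 0 of either list fell and none held. By sign, all 11 oxidative phosphorylation subunits of like sign were higher in KO, as were 40 of 43 ribosomal proteins. The 2 list medians were 0.139 and 0.18 averaged, 0.364 and 0.355 without stress, and -0.092 and 0.011 with stress. Averaged without unstressed WT libraries 1 and 2, they were 0.163 and 0.234.

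Of 74 genes in the lists for oligodendrocytes, their precursors, astrocytes and microglia, 5 were called with the same sign (6.76%), near the share over all genes (6.07%). Gpr17, a receptor that marks oligodendrocyte precursors on the way to differentiation, stood at 45.7, 46.7 and 51.2 CPM in WT left unstressed, 42.1, 47.9 and 56.5 CPM in stressed WT, 31.9, 31.8 and 30.7 CPM in KO left unstressed and 29.6, 28.1 and 28.1 CPM in stressed KO. All KO values were below all WT values, it passed at each stress level, and it held, at log2 -0.69 ± 0.07 (SE; edgeR adjusted p = 3.1e-04). Gpr17 overlaps Lims2. Of 12 precursor genes 9 had the same sign, all lower in KO, and 2 fell, the other being Vcan (log2 -0.41 ± 0.11), a matrix proteoglycan that did not hold. The list's median was -0.34, and its scores ran from -0.36 to 0.01 in KO and from -0.07 to 0.39 in WT. The other glial lists leaned to 1 direction too. Of members with the same sign, 9 of 9 oligodendrocyte and myelin genes and 11 of 12 astrocyte markers were lower in KO. Of the microglia markers with the same sign, 13 of 14 were higher. The list medians were -0.16, -0.09 and 0.15. Of 25 oligodendrocyte and myelin genes 1 fell, Enpp2 (log2 -0.33 ± 0.05), without overlap between genotypes. Of 20 astrocyte markers 1 fell, Atp1b2 (log2 -0.42 ± 0.10), and of 20 microglia markers 1 rose, Aif1 (log2 0.74 ± 0.13). None of these 3 held.

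Of 130 vascular, immune and neighbouring-tissue genes, 8 were called with the same sign (6.15%), also near the 6.07% over all genes. Of 23 endothelial and mural genes Egfl7, an angiogenic factor of endothelium, rose and held (log2 0.45 ± 0.06); it overlaps Agpat2. Slc2a1, the glucose transporter of the blood-brain barrier, fell (log2 -0.37 ± 0.10) and did not hold. Of 33 interferon-stimulated and antigen presentation genes H2-T23 (log2 0.50 ± 0.10, uncertain) and Ifi27 (log2 0.38 ± 0.10) rose, and neither held. Col6a2, a collagen, rose (log2 0.65 ± 0.12) while the median of its list of 20 meningeal and fibroblast markers was -0.65, at -1.66 without and 0.43 with stress, and -0.10 averaged without unstressed WT libraries 1 and 2. Of 15 olfactory bulb markers Th (log2 -2.19 ± 0.52) and Tbx21 (log2 -2.94 ± 0.76) were called lower and neither held. That list's median was -3.17 without stress, -0.01 with stress and -0.35 averaged without unstressed WT libraries 1 and 2. Of 11 thalamic markers Ntng1 fell (log2 -0.84 ± 0.20) and did not hold. Of 17 striatal markers, 6 choroid plexus and ependymal markers and 5 blood cell genes, edgeR called 0 over all genes. With the same sign, 6, 1 and 0 of them had an unadjusted p under 0.05, and DESeq2 called 2, 0 and 0. Among those of like sign, Serpina9 had log2 1.76 ± 0.48 (adjusted p = 0.0505), with its highest level, 7.17 CPM, in stressed KO library 1.

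**Figure D5:**
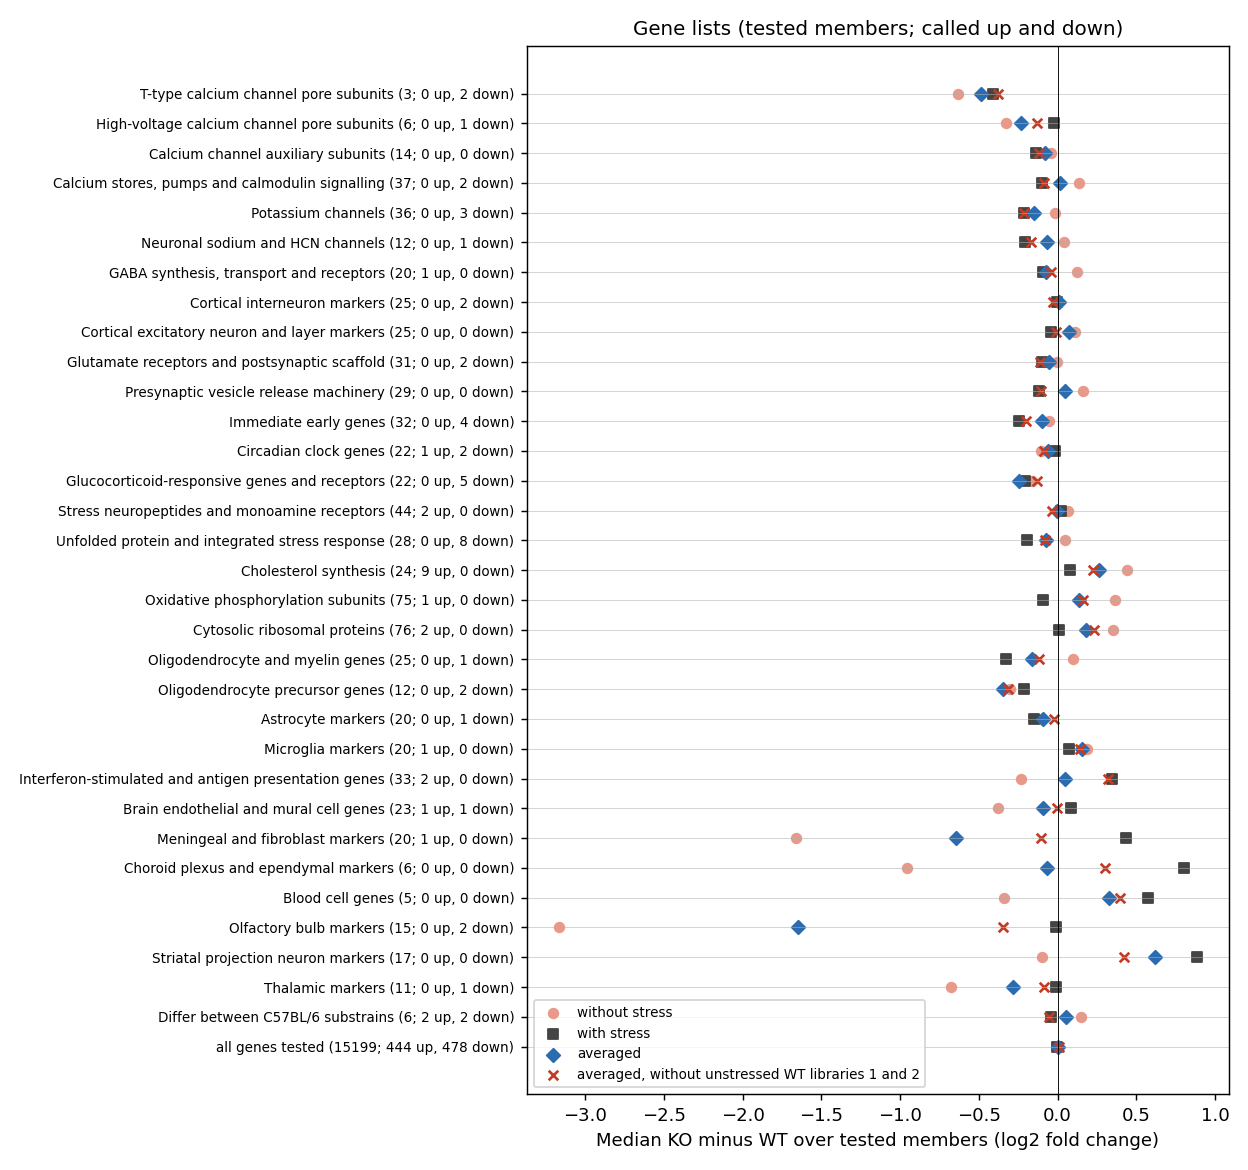
Median KO minus WT log2 fold change (x axis) over the tested members of each gene list, without stress, with stress, averaged, and averaged without unstressed WT libraries 1 and 2; labels give the number tested and how many were called higher and lower with the same sign. Olfactory bulb markers lie at -3.17 without stress and -0.01 with stress, and the median of all genes tested lies at 0.001 averaged.

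Other held genes outside the lists were picked after their values were seen. Pfkfb3, which sets the rate of glycolysis, stood at 34.3, 34.9 and 32 CPM in WT left unstressed, 44.1, 42.8 and 39.1 CPM in stressed WT, 28.3, 27.2 and 29.5 CPM in KO left unstressed and 28.3, 26.9 and 28.6 CPM in stressed KO. KO values lay below all WT values, and the difference was log2 -0.25 ± 0.07 without and log2 -0.59 ± 0.07 with stress. Osbpl3, an oxysterol-binding protein, fell by 0.42 ± 0.06 on the log2 scale and Itgb8, an integrin that activates TGF-beta, by 0.49 ± 0.06 on the log2 scale, and both passed at each stress level. Maob, the monoamine oxidase that degrades phenylethylamine and dopamine, stood at 22.3, 24.4 and 20.9 CPM in WT left unstressed, 25.1, 28.1 and 25.6 CPM in stressed WT, 30.9, 32.8 and 30.5 CPM in KO left unstressed and 32.2, 31.7 and 32.8 CPM in stressed KO. Every KO library was above every WT library, at log2 0.39 ± 0.05 (SE; edgeR adjusted p = 0.00408). Slc38a2, a transporter of neutral amino acids, fell by 0.50 ± 0.06 on the log2 scale. Prrt1, a protein associated with AMPA receptors, fell by 0.49 ± 0.08 on the log2 scale. Slc6a9, the glycine transporter GlyT1, stood at 92.7, 99.2 and 45 CPM in unstressed WT, where the first 2 values are from the libraries with high olfactory bulb scores, and at 39.1, 36 and 43.5 CPM in stressed WT. Its averaged difference was log2 -0.82 ± 0.16 with all libraries and log2 -0.41 ± 0.07 without those 2, and it overlaps B4galt2 and Ccdc24. Slc6a9 lost its call in 7 of 23 alternatives.

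Further held genes, picked in the same way, have varied roles. Rac3, a small GTPase (log2 0.44 ± 0.06), and Rab2a (log2 0.38 ± 0.05), a GTPase of transport between endoplasmic reticulum and Golgi, were higher. Arhgef2, which activates RhoA (log2 -0.34 ± 0.04), Ehd1, which returns endosomes to the surface (log2 -0.31 ± 0.06), and Dvl3, a transducer of Wnt signals (log2 -0.50 ± 0.07), were lower. Jdp2, a repressor at AP-1 sites (log2 -0.48 ± 0.07), was lower, and Brdt, a bromodomain protein known from testis, was higher (log2 0.64 ± 0.10). Arhgef2 stood at 147, 150.4 and 155 CPM in WT left unstressed, 153, 142 and 146 CPM in stressed WT, 119, 116 and 117 CPM in KO left unstressed and 117, 124 and 115 CPM in stressed KO. No KO value of Arhgef2 reached any WT value, although the fold was small. Spred2, which restrains Ras signalling (log2 -0.27 ± 0.07), Hs6st3, which sulfates heparan chains (log2 -0.67 ± 0.11), and Pde4dip, a centrosomal and Golgi scaffold (log2 -0.37 ± 0.05), were lower. Nipsnap1, a mitochondrial protein, was higher (log2 0.34 ± 0.04). Spred2 lost its call in 12 of 23 alternatives.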

How the data were processed

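RNA-seq was made from the medial prefrontal cortex in 12 libraries, with a kit that keeps RNA strand per the labels' protocols. The values the authors deposited are estimated counts by gene symbol, without normalisation. The submitters' processing notes list DESeq2 1.36.0, RSEM 1.3.1, STAR 2.7.9a, Trim Galore 0.6.6 and the build mm10. How strand was handled in counting, and which annotation was used, is not given in the sources used here. Estimated counts were rounded to whole numbers. Genes with low counts were removed (edgeR filterByExpr, minimum count 10, minimum total 15), which left 15199; 4800 had no count and 4412 too few. CPM use TMM factors, with a prior count of 2 on the log2 scale. A count of 0 allows up to 3 counts, or 0.0920 to 0.192 CPM, for counting error only.

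One edgeR quasi-likelihood fit of 4 group means gave KO minus WT averaged over stress, without stress, with stress, and the interaction, each two-sided with Benjamini-Hochberg adjustment over all genes tested and a threshold of 0.05. Errors are standard errors from that fit. A gene is called uncertain if at least 6 libraries give it decimals, a sign of reads divided among similar sequences. Fits used edgeR 4.0.16 with limma 3.58.1 in R 4.3.3, and alternatives used sva 3.50.0 and DESeq2 1.42.0, and the test was tried on simulated data. Chi-square per degree of freedom between replicates was 5.07 to 72.1, so no library was counted as a duplicate. Positions came from GENCODE release M21 by name, otherwise RefSeq on GRCm38.p6, for 15165 of 15199 genes (99.8%).

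The members, lists and alternatives were chosen with earlier results of these data known. Named were Cacna1g and, among called genes of like sign with a proper name, mean log2 CPM not under 0 and no overlap of KO with WT, the 15 largest rises and falls, the 10 smallest p, those called in each stress level, and those within 5 Mb of Cacna1g. Each list added its 4 members of like sign with the smallest p and up to 8 called. Picked after their values were seen were Arhgef2, Brdt, Caly, Dvl3, Ehd1, Hs6st3, Igip, Itgb8, Jdp2, Maob, Mrgpre, Nipsnap1, Osbpl3, Pcdhga10, Pde4dip, Pfkfb3, Prrt1, Rab2a, Rac3, Slc38a2, Slc6a9, Spred2, Tnfrsf23, Phf11d and Lyplal1, the distal chromosome 7 stretch, and the copies summed in families. Results for some items are not reported here.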

Additional observations from a re-analysis of the deposited data

How the results depend on the processing

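The count of genes called with the same sign, 922, depended on which libraries were used. It was 77 without unstressed WT libraries 1 and 2, 66 without these, stressed WT library 3 and stressed KO library 1, 65 with the bulb score as covariate, 191 with 1 surrogate variable, 267 in an additive model, 1732 by DESeq2, and 285 if KO and WT may not overlap. Leaving out each library in turn gave 162 to 2514, lowest without stressed WT library 1 (162) or unstressed WT library 2 (166) and highest without unstressed WT library 3; 11 of these 12 counts were lower than 922 by over 1.5 times. The comparison without stress (3529) gave 18, 29, 14 and 15 with the first 3 changes and the surrogate variable, 18 with only the 6 unstressed libraries, and 234 to 5729 with each library left out, lowest without unstressed WT library 2. The comparison with stress (38) gave 82 without unstressed WT libraries 1 and 2, 67 with the covariate, 148 with the surrogate variable, 299 by DESeq2, 17 without genes with decimals and 19 to 116 with each library left out. The interaction (0) gave 198 with DESeq2 size factors, 143 without the filter, 1844 by DESeq2, 7 without the 4 libraries, 88 without genes within 20 Mb of Cacna1g, 216 without genes with decimals and 0 to 3851 with each library left out, highest without unstressed WT library 3. Genes passing in both levels (26) numbered 15, 14, 14 and 14 with the first 3 changes and the surrogate variable, 94 by DESeq2, 14 without genes with decimals and 16 to 52 with each library left out. The cause of these shifts was not tested.

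Same-numbered libraries of different groups correlated at -0.246 to 0.364 over 18 pairs, and 5 of 12 matched their own number best, so the numbers are not taken as pairs. With the replicate block 748 genes were called with the same sign, 3155 without stress, 27 with stress, 0 for the interaction and 20 in both levels.

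Of 125 named genes that were called, 29 were called in every alternative, 96 lost the call in at least 1 and 0 changed sign. Alternatives for the interaction, for both levels together and for list members, the requirement of no overlap, and, for each stress level alone, those without the 4 libraries, without genes within 20 Mb and without genes with decimals, were chosen after seeing the data. Where a library left out leaves 1 in a group, that library is assumed to vary like the other groups. Low counts limit Tnfrsf23, Plac9b and Ccl21b most.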
